A study of Mus musculus with 20 samples.

Results

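The 4 libraries titled ES, 9h and ES, 24h were compared, 2 per time, out of the 20 scRNA-seq libraries of the series. They hold mouse ES cells 9 hours and 24 hours after doxycycline was added. Every one of them is of the iGata4-Gata6-Venus line, with the alleles Col1A1TetO-Gata4/+, R26M2rtTA/+ and Gata6H2B-Venus/+, so that an inducible Gata4 transgene, its activator and a reporter at 1 Gata6 allele are shared by both times and both times are induced. It is 1 line, grown in serum and LIF, and the induced protein is a Gata4-mCherry fusion. All genes were compared, and the libraries were chosen by their titles. Of 20352 deposited cells in the 4 libraries, 18150 had 500 or more genes and were kept, against 113288 kept in the whole series. The duplicates are described as technical, but those of 24h are of different sequencing projects, and whether the libraries of a time came from separate cultures is not clear. The p-values therefore measure the spread between these libraries, which may be technical. The 9h cells had been sorted into subpopulations and put together again before capture, and the 24h cells had not, so the mix of cells at 9h is not that of the culture. In sums over cells, sorting, more cells of a kind and more RNA per cell cannot be told apart. 9h rep1, 9h rep2 and 24h rep2 are of 1 sequencing project and 24h rep1 is of another.

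Primitive endoderm is the cell layer that forms beside the pluripotent epiblast in the blastocyst and gives rise to the visceral and parietal endoderm of the yolk sac. GATA6 and GATA4, zinc-finger factors, act at the head of this programme, with SOX17, SOX7 and FOXA2 after them, and the parietal cells lay down a thick basement membrane of type IV collagen and laminin. Forced GATA4 or GATA6 in ES cells switches on this programme, and the FGF receptor and ERK pathway takes part in the choice between epiblast and primitive endoderm in the embryo.

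The 4 libraries held 118646706 and 111108919 UMIs at 9h and 62840791 (rep1) and 59392835 (rep2) at 24h, with medians of 24933, 19518, 10322.5 and 16585 UMIs per cell. Mitochondrial RNA took 1.71% and 1.73% of UMIs at 9h and 2.12% and 2.15% at 24h. Between 24 and 45 cell barcodes were shared by any pair of the 4 libraries, at most 0.9312% of the smaller library. The labelled cell type was checked against its markers. All 6 pluripotent markers (Pou5f1, Sox2, Nanog, Zfp42, Esrrb, Tfcp2l1) were counted in each library, with a summed level of 888.4 and 1214 CPM at 9h and 1019 and 1103 CPM at 24h (UMIs scaled to a common library total, here without TMM factors). The 7 primitive endoderm markers summed to 27.32 and 25.71 CPM at 9h and 235.5 and 112.8 CPM at 24h. The 9h duplicates lay far closer to each other than the 24h duplicates: the SD of the log2 ratio between duplicates over the 4538 genes with a mean of at least 20 CPM was 0.0762 at 9h and 0.5088 at 24h, where the duplicates are of different projects. For ES and iXEN, whose duplicates share a project within each pair, it was 0.2659 and 0.5559.

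Across all genes, 1551 of 15723 tested (9.86%) were called, 1007 of them higher at 24h (6.4%) and 544 lower (3.46%). The test was edgeR's quasi-likelihood test in a fit of the 10 ES-to-iXEN libraries. A call needed both an adjusted p below 0.05 and a difference of 1 or more on the log2 scale, up or down. Levels are given below as TMM-scaled CPM, and folds as log2 of 24h over 9h with the standard error of the fit. Genes called higher had a lower median level than genes called lower. Among genes with a mean of at least 20 CPM over the 4 libraries 7.71% were called, 76 of them higher (1.67%) and 274 lower (6.04%), while below that level the counts were 931 (8.32%) and 270 (2.41%). The median level was 1.97 CPM for genes called higher and 20.41 CPM for those called lower, against 6.325 CPM for all genes tested. Depth moved with time as well, and its part in this split was not tested. The number of calls depended on having both 9h libraries. Without 9h rep1 the count fell to 40 of 16146 genes (0.248%; 26 higher, 14 lower) and without 9h rep2 to 35 of 16153 (0.217%; 22 higher, 13 lower), although 1820 and 1854 genes still had an unadjusted p under 0.05 and differed by 1 or more (log2), against 2646 with all libraries.

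Direction was then compared within 1 sequencing project. All 1551 called genes moved the same way in 24h rep2, the library of the same project as 9h, against both 9h libraries, and 1252 of them did so by a log2 ratio of at least 1. This is a description, since 24h rep2 took part in the call. Without 24h rep1, which leaves 1 project, 713 genes were called (4.3% of 16581; 2.74% higher, 1.56% lower), and without 24h rep2 1001 were (6.05%). With project as a term in the model 1232 were called (7.84%, with 4.87% higher and 2.97% lower), and 1011 of these were among the 1551. The term marked the project of both 9h libraries, 24h rep2 and 48h rep2. It was therefore set by the gaps between the duplicates of 24h and of 48h, where project goes with replicate number. Of the 65 called genes of the lists and of the naming rule, 53 were called with the project term and 40 without 24h rep1. The naming rule asked for a move in 24h rep2, so the count without 24h rep1 was partly set by it. The 12 lost with the project term were Gata6, Sox17, Foxa2, Col4a1, Col4a2, Lama1, Fkbp10, Utf1, Gdf3, Bmp2, Bnip3 and Cdk1. All of these but Bnip3 were lost without 24h rep1 too, as were Sox7, Lamc1, Cubn, Pth1r, P4ha2, Sec24d, Creb3l2, Dusp6, Atf4, Eda2r, Eras, Tdh, Tnni3 and Platr13. Genes of the lists that were not among these 65 but were called after such a change were Ctsl, Sec23a, Hmgcs1 and Insig1 (higher) and Atf3, Egr1 and Fosb (lower) with the project term, and Apoe and Cdkn1b (higher) without 24h rep1. Without 9h rep1 or 9h rep2, the lists held calls only among the receptor genes (3 and 2) and the collagen modification and secretion genes (1 and 1), and the counts of every other list given below fell to 0.

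Of 8 primitive endoderm transcription factors tested, 7 were called higher at 24h, against 6.4% of all genes, and the other, Gata5, was at 0 in 3 libraries and at 0.0317 CPM in 24h rep1. The count was 0 without either 9h library, 3 without 24h rep1, and 4 with the project term, with no filter on low counts or in a fit of all 20 libraries. The median log2 fold change was 3.41 over the 7 members with more than 3 UMIs at 9h, against 0.104 over all genes tested. Gata4, the induced gene, was at 3.90 and 3.18 CPM at 9h and 46.7 (rep1) and 28.9 (rep2) CPM at 24h, a log2 fold change of 3.41 ± 0.47 (SE, edgeR adjusted p = 0.00488). Both 24h libraries were above both 9h libraries, and the counts do not separate transgene from endogenous RNA. In ES, before induction, Gata4 stood at 0.382 and 0.157 CPM. Gata6, the partner of Gata4, was at 14.3 and 14.0 CPM at 9h and 67.9 and 28.3 CPM at 24h (1.77 ± 0.48, adjusted p = 0.0392). Gata6 was called in 8 of 15 alternatives, and not with the project term nor without 24h rep1. Its 24h duplicates were further apart than those of Gata4.

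Foxq1, a forkhead factor, had the highest log2 fold change of all genes ranked by the naming rule. Foxq1 (chromosome 13, 31556134 to 31560976, GRCm38) was at 2.93 and 2.11 CPM at 9h and 138 and 52.2 CPM at 24h (5.24 ± 0.60, adjusted p = 0.00295). Both 24h libraries lay far above both 9h libraries. Foxa2, a pioneer factor of endoderm, was at 0.382 and 0.264 CPM at 9h, 8.52 CPM in 24h rep1 and 1.46 CPM in 24h rep2. Sox17, an HMG-box factor of endoderm, was at 1.38 and 1.40 CPM at 9h, 17.6 CPM in 24h rep1 and 4.54 CPM in 24h rep2. Sox7, its relative, was at 6.37 and 5.90 CPM and then 26.1 and 15.3 CPM (1.76 ± 0.38, adjusted p = 0.0179). Foxa2 and Sox17 were called (adjusted p = 0.019 and 0.0323), but neither was called with the project term or without 24h rep1, and Sox7 was not called without 24h rep1. Hnf4a, a nuclear receptor of visceral endoderm, had 3 and 2 UMIs in the 9h libraries and 54 and 37 at 24h, a ratio per total over both 9h libraries of 39.5 in 24h rep1 (exact 95% counting interval 15.9 to 126) and 28.6 in 24h rep2 (11.2 to 93.3).

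**Figure D1:**
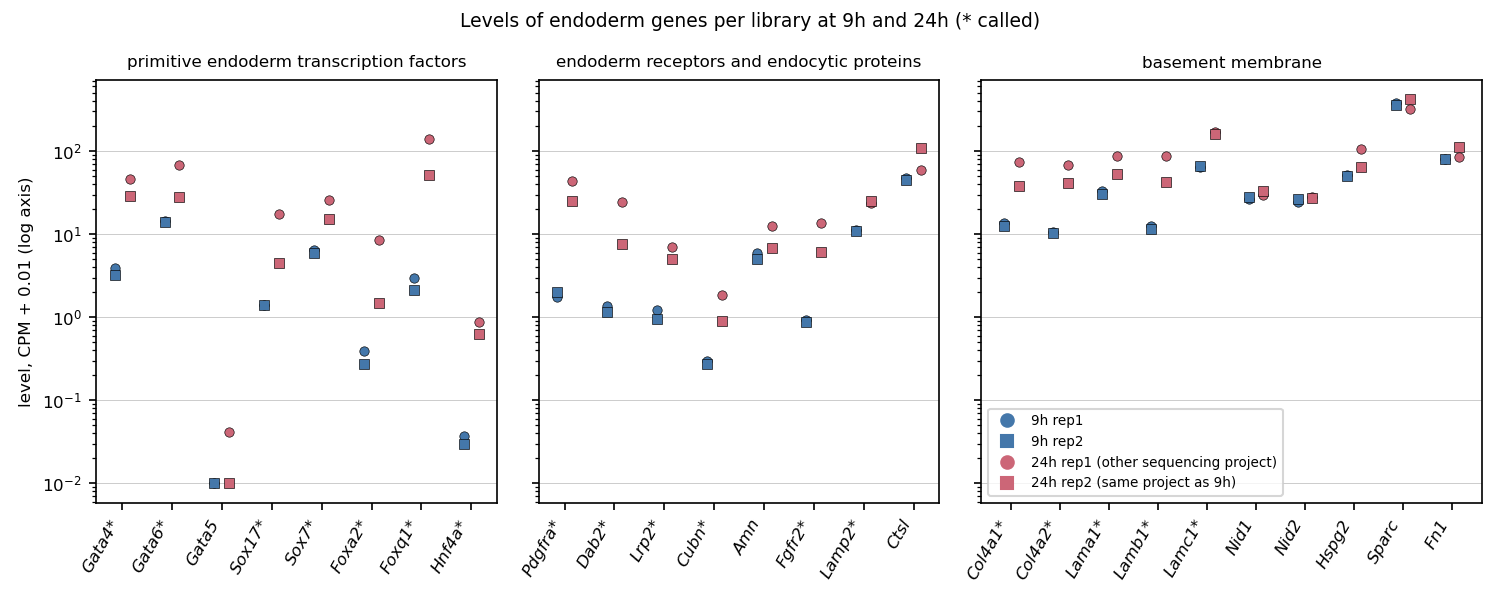
Level (CPM + 0.01, log axis) of each member of 3 endoderm lists in the 2 libraries of 9h (blue) and the 2 of 24h (red), circles for rep1 and squares for rep2; an asterisk marks a called gene. The 9h duplicates nearly coincide. For all 8 transcription factors 24h rep1 lies above 24h rep2, as for Foxq1 at 138 and 52.2 CPM, though Gata5 was barely counted.

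Genes of receptors and endocytosis, through which extraembryonic endoderm senses PDGF and FGF and takes up nutrients, were called higher in 6 of 8 cases, against 6.4% of all genes, and in all 8 both 24h libraries lay above both 9h libraries, which was so for 40.3% of all genes tested. Pdgfra, the PDGF receptor whose protein marks primitive endoderm (chromosome 5, 75152292 to 75198215), was at 1.76 and 2.01 CPM at 9h and 43.2 and 25.2 CPM at 24h (4.18 ± 0.35, adjusted p = 0.000908). Its call held in all 15 alternatives. Dab2, a clathrin adaptor of endoderm, rose from 1.37 and 1.16 CPM to 24.3 and 7.63 CPM (3.65 ± 0.55, adjusted p = 0.00617). Fgfr2, the FGF receptor of primitive endoderm, rose from 0.910 and 0.869 CPM to 13.6 and 6.12 CPM (3.47 ± 0.38, adjusted p = 0.00263). Lrp2 and Cubn, the paired scavenger receptors megalin and cubilin, rose by 2.45 ± 0.25 and 2.29 ± 0.41, though Cubn was not called without 24h rep1. The call of Lrp2 also held in all 15 alternatives. Lamp2, a lysosomal membrane protein, rose by 1.15 ± 0.15. Amn, the third member of that receptor complex, was at 5.91 and 5.01 CPM and then 12.7 and 6.73 CPM and was not called. Ctsl, a lysosomal protease, was at 46.9 and 45.0 CPM and then 59.1 and 110 CPM and was not called either, but was with the project term, which gave 7 calls of 8. A fit of all 20 libraries gave 4, and leaving out 9h rep1 or 9h rep2 gave 3 and 2.

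Promoters of 2 genes that rose are shown because the induced factor is one that binds DNA: GATA proteins bind the word GATA with set neighbours. RefSeq windows (GRCm38.p6, from 250 bases before to 50 after a start) were searched on both strands for the word AGATAA, the word TGATAA, the word AGATAG and the word TGATAG. These words stood in 29.8% of all 32851 windows in the table, 19.3% of those of genes tested, 19.8% of those of genes called higher and 20.0% of those of genes called lower. Windows were given for 695 of the 1007 genes called higher. For Hnf4a 1 of 2 windows (chr2:163506607-163506906, + strand) held 1 match, and for Dab2 1 of 2 (chr15:6299539-6299838, + strand) held 2. Which start was used cannot be read from 3' counts. The sequences run 5′ to 3′ on the gene's strand, with matches in capitals.
Hnf4a: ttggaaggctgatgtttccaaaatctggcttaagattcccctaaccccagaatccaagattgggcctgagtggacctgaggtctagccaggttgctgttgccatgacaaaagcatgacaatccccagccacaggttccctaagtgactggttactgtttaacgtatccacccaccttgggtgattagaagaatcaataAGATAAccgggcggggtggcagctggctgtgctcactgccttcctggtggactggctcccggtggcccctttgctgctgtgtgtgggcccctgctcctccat
Dab2: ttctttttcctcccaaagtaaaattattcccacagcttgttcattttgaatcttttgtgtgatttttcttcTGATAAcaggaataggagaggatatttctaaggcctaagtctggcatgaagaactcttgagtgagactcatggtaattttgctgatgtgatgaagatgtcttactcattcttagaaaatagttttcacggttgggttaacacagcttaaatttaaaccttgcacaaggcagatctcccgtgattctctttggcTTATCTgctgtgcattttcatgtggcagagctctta

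Of 10 basement membrane genes tested, 5 were called higher at 24h, against 6.4% of all genes: both chains of type IV collagen and the alpha 1, beta 1 and gamma 1 chains of laminin. Col4a1 was at 13.8 and 12.5 CPM at 9h and 73.0 and 37.8 CPM at 24h (2.08 ± 0.49, adjusted p = 0.0241), and Col4a2 at 10.7 and 10.3 CPM and then 68.9 and 40.8 CPM (2.39 ± 0.55, adjusted p = 0.0216). Lamb1 rose from 12.5 and 11.7 CPM to 87.2 and 42.1 CPM (2.42 ± 0.40, adjusted p = 0.00827), Lamc1 by 1.34 ± 0.24 and Lama1 by 1.16 ± 0.34 (adjusted p = 0.0109 and 0.0493). Lamb1 and Lamc1 were called with the project term as well and the other 3 were not, and without 24h rep1 only Lamb1 was. None of the 10 was called without 9h rep1 or without 9h rep2, and 2 were with no filter on low counts. The linker genes Nid1 and Nid2 (26.4 and 27.6 CPM, then 29.4 and 33.1 CPM, for Nid1), the proteoglycan Hspg2, Sparc and Fn1 were not called. Sparc, a collagen-binding protein that reaches 7014 CPM in iXEN rep1, stood at 383 and 360 CPM and then 323 and 422 CPM, so that the groups overlapped.

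Col4a1 and Col4a2 lie head to head on chromosome 8, and their windows, shown because both genes were called higher, share 78 bases. Neither holds one of the 4 GATA words, which says only that these letters are not in these windows. The first is of the - strand (chr8:11312777-11313076) and the second of the + strand (chr8:11312555-11312854), with nothing in capitals.
Col4a1: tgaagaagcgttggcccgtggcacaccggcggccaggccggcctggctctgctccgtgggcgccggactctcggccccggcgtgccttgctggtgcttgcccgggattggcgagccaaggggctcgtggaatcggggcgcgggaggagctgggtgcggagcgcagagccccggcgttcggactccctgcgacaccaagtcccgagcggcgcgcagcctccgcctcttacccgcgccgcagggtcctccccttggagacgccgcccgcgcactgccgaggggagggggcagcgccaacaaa
Col4a2: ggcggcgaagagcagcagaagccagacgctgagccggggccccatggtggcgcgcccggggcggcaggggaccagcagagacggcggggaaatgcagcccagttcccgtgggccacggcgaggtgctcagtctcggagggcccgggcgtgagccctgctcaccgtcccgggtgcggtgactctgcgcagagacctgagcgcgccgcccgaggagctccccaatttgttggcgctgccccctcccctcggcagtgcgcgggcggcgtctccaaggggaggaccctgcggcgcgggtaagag

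The list of collagen modification and secretion, which holds enzymes, chaperones and parts of the export machinery, had 5 of 16 tested genes called higher and 1 lower, beside 6.4% and 3.46% of all genes. Plod2, the lysyl hydroxylase of collagen telopeptides, rose from 8.03 and 8.86 CPM to 52.3 and 63.6 CPM (2.78 ± 0.17, adjusted p = 0.000276), with 24h libraries close to each other, and was called in all 15 alternatives. The prolyl 4-hydroxylase subunits P4ha1 and P4ha2 rose by 1.60 ± 0.21 and 1.42 ± 0.39. Sec24d, a COPII coat protein needed for collagen export, rose by 1.31 ± 0.27, and Creb3l2, a membrane-bound factor that activates Sec23a, by 1.25 ± 0.31. The calls of P4ha2, Sec24d and Creb3l2 were lost without 24h rep1. Sec23a itself rose from 14.2 and 13.8 CPM to 25.3 and 26.9 CPM (0.90 ± 0.21, adjusted p = 0.0245), under the fold required for a call, but was called with the project term, which gave 6 genes higher and 0 lower. Of the list, 2 were called higher without 24h rep1, 3 without 24h rep2 and 1 without either 9h library. Fkbp10, a collagen chaperone, fell from 17.2 CPM in both 9h libraries to 6.495 and 9.77 CPM (-1.08 ± 0.22, adjusted p = 0.0161), and was not called with the project term or without 24h rep1. Serpinh1, the collagen chaperone HSP47, was at 121 and 119 CPM and then 232 and 244 CPM and missed the call (0.99 ± 0.35, adjusted p = 0.0857).

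Products of differentiated endoderm were called in the parietal list and not in the visceral one. The difference between the lists was not tested and depends on which genes each list holds. Hnf4a and Bmp2, genes of visceral endoderm placed in other lists, were called higher, Bmp2 not with the project term or without 24h rep1. None of 11 genes of proteins secreted by visceral endoderm was called, while Apoe was without 24h rep1. Afp, Ttr and Fgb were at or under 0.0182 CPM in all 4 libraries, while Apoe was at 381 and 362 CPM at 9h and 322 and 760 CPM at 24h. By edgeR 2 had an unadjusted p under 0.05 and 0 an adjusted one, while DESeq2 called 1 higher (Apoa1) and 1 lower (Apom). An edgeR replicate block called 1 higher, and an edgeR fit of the 4 libraries alone called 1 lower. Of 9 genes of parietal endoderm and keratins, 3 were called higher, against 6.4% of all genes. Fst, which binds activin, rose from 0.546 and 0.576 CPM to 24.4 and 7.76 CPM (4.84 ± 0.65, adjusted p = 0.00471). Plat, tissue plasminogen activator, rose from 0.673 and 0.654 CPM to 8.98 and 8.36 CPM (3.71 ± 0.44), and Pth1r, the receptor for parathyroid hormone-related protein, from 1.14 and 1.08 CPM to 7.43 and 2.98 CPM (2.23 ± 0.42), a call that was lost without 24h rep1. The keratin Krt8 was at 48.8 and 42.8 CPM and then 27.2 and 37.9 CPM and was not called, and Thbd, a thrombin receptor of parietal endoderm, stayed at or under 0.0317 CPM.

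Over all genes 3.46% were called lower and 6.4% higher, and among those with a mean of at least 20 CPM 6.04% and 1.67%. Of 23 pluripotency genes tested, 2 were called lower, 1 was called higher and 20 were not called, with a median log2 fold change of -0.45. The 2 were Utf1, a chromatin-bound factor of ES cells (862 and 860 CPM, then 228 and 342 CPM, -1.60 ± 0.38, adjusted p = 0.0241), and Gdf3, a TGF-beta ligand (84.6 and 81.8 CPM, then 34.4 and 36.5 CPM, -1.23 ± 0.30, adjusted p = 0.0285). Neither kept its call with the project term or without 24h rep1. Of the 23, DESeq2 called 4 lower, an edgeR fit of the 4 libraries alone 5 and a replicate block 3. With the project term and in a fit of all 20 libraries the count was 0. Dppa3, a maternal factor that varies among ES cells, rose from 3.74 and 4.22 CPM to 9.54 and 13.1 CPM (1.505 ± 0.26, adjusted p = 0.00954). After thinning to 3000 UMIs per cell, Dppa3 was found in 5.213% and 4.405% of ES cells. The shares were 0.9097% and 0.869% at 9h and 2.667% and 3.026% at 24h. Pou5f1, which encodes OCT4, was at 431 CPM in 9h rep1, 784 CPM in 9h rep2, 566 CPM in 24h rep1 and 615 CPM in 24h rep2. Both 24h libraries thus lay between the 9h duplicates, whose log2 difference of -0.86 was the largest among the 4538 genes with at least 20 CPM, of which 8 differed by 0.5 or more at 9h. Nanog was at 24.5 and 27.2 CPM at 9h and 15.1 and 13.4 CPM at 24h, after 80.8 and 73.3 CPM in ES, and its fold from 9h to 24h was -0.86 ± 0.68 (adjusted p = 0.402). Sox2 was at 82.2 and 85.8 CPM and then 58.2 and 69.7 CPM, and Esrrb at 26.6 and 26.9 CPM and then 19.2 and 18.3 CPM. In 13 of the 23 both 24h libraries lay below both 9h libraries, which was so for 32.7% of all genes. Tdgf1, a NODAL co-receptor, was at 333 and 350 CPM and then 74.3 and 126 CPM, a log2 fold change of -1.77 with a standard error of 1.26 over the 10 libraries. The 10 formative and primed epiblast genes gave no call by edgeR in the fit of the 10 libraries, with 2 at an unadjusted p under 0.05. DESeq2 called 1 (Sall2, higher), as did an edgeR fit of the 4 libraries alone. Dnmt3b, a de novo DNA methyltransferase, was at 67.9 and 68.3 CPM and then 124 and 69.3 CPM, and Otx2 at 2 CPM or lower.

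**Figure D2:**
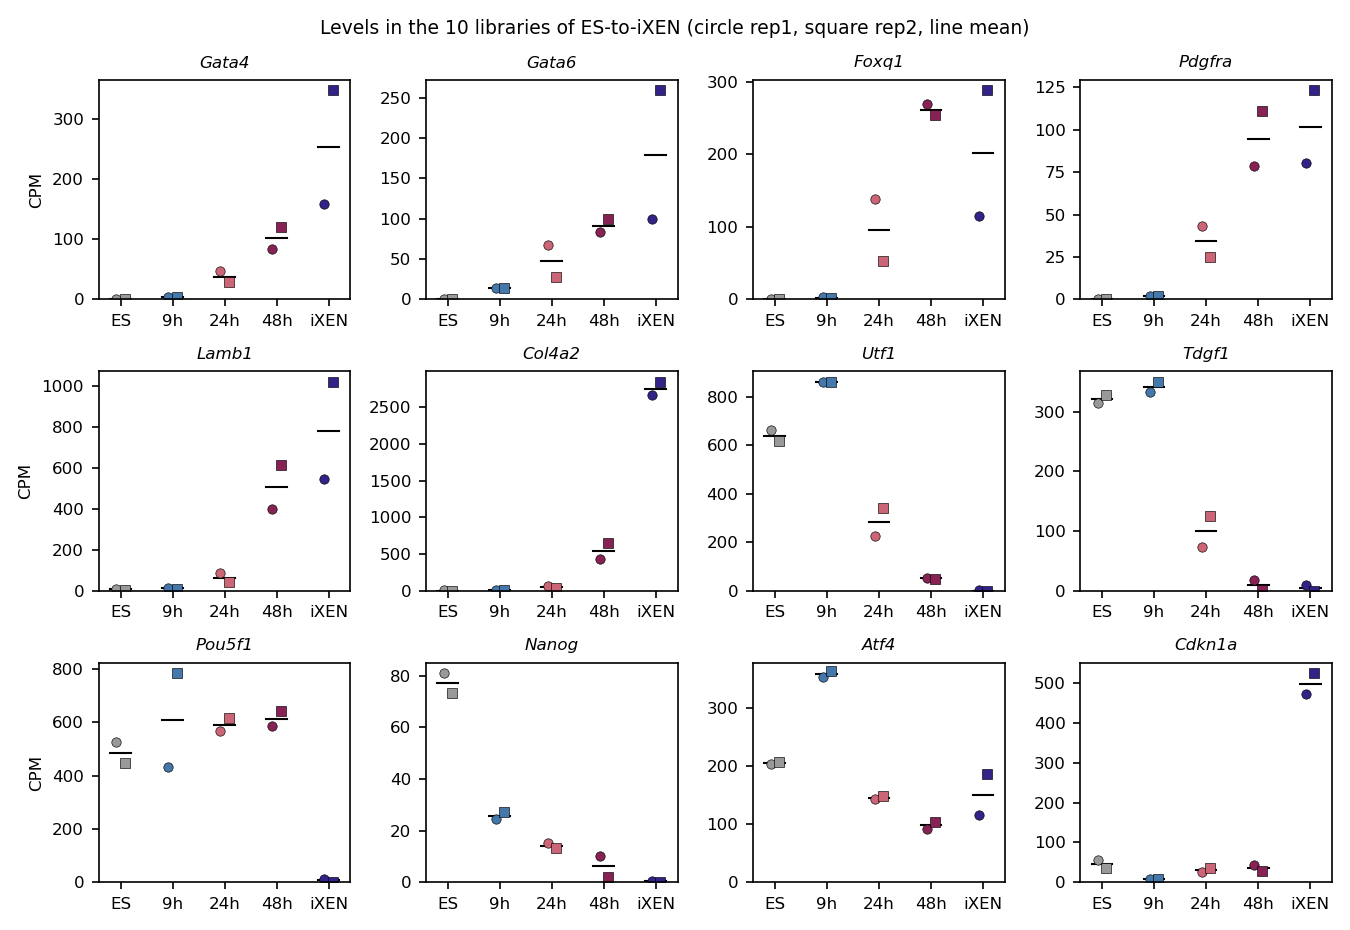
Level (CPM) of 12 genes in the 10 ES-to-iXEN libraries by condition, circles for rep1, squares for rep2 and a line for the mean of 2. Endoderm genes stand at 24h between 9h and 48h, Utf1 is lower at 24h than at 9h (Tdgf1 too, without a call), and the 9h duplicates part at Pou5f1 (431 and 784 CPM).

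Each of the next 5 lists held at most 1 call in a direction, beside 6.4% of all genes called higher and 3.46% lower. In the FGF and ERK list 1 of 14 was called higher and 1 lower: Dusp4, a nuclear MAP kinase phosphatase, rose from 3.802 and 3.75 CPM to 19.6 and 11.98 CPM (2.06 ± 0.28, adjusted p = 0.00474), and Dusp6, the cytoplasmic ERK phosphatase, fell from 30.7 and 32.1 CPM to 11.6 and 13.01 CPM (-1.35 ± 0.34, adjusted p = 0.0312), the latter not called without 24h rep1. The ERK-responsive factor Etv4 was at 146 and 142 CPM and then 43.2 and 57.6 CPM (adjusted p = 0.0921), and Fgf4, the ligand made by epiblast, at 9.03 and 8.13 CPM and then 3.25 and 4.22 CPM. Of 11 Nodal and BMP genes, 1 was called higher. Bmp2, the BMP ligand of visceral endoderm, had 2 UMIs in each 9h library and 98 and 24 at 24h, a ratio per total over both 9h libraries of 89.6 in 24h rep1 (exact 95% counting interval 33.9 to 335) and 23.2 in 24h rep2 (7.974 to 92.04). It was not called with the project term or without 24h rep1. Bmp4, the ligand of epiblast and extraembryonic ectoderm, went the other way without a call, at 95.6 and 91.8 CPM and then 7.67 and 26.2 CPM (adjusted p = 0.073). Lefty1 and Lefty2, the NODAL antagonists, were at 197 and 176 CPM and 424 and 415 CPM at 9h, then 86.4 and 126 CPM and 148 and 307 CPM, with no call. In the Wnt list 1 of 10 was called: Dkk1, a secreted Wnt inhibitor, rose from 0.764 and 0.732 CPM to 17.5 and 8.29 CPM (4.11 ± 0.73, adjusted p = 0.0102). None of 7 LIF and STAT3 genes was called by edgeR, with 2 at an unadjusted p under 0.05, or by DESeq2. The cultures held LIF at both times. Among 11 cadherin and adhesion genes only Itgav, an integrin alpha chain, was called (4.39 and 4.97 CPM, then 13.8 and 11.6 CPM, 1.44 ± 0.21), and Cdh1 stood at 23.9 and 26.3 CPM and then 50.8 and 54.7 CPM (adjusted p = 0.0571).

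**Figure D3:**
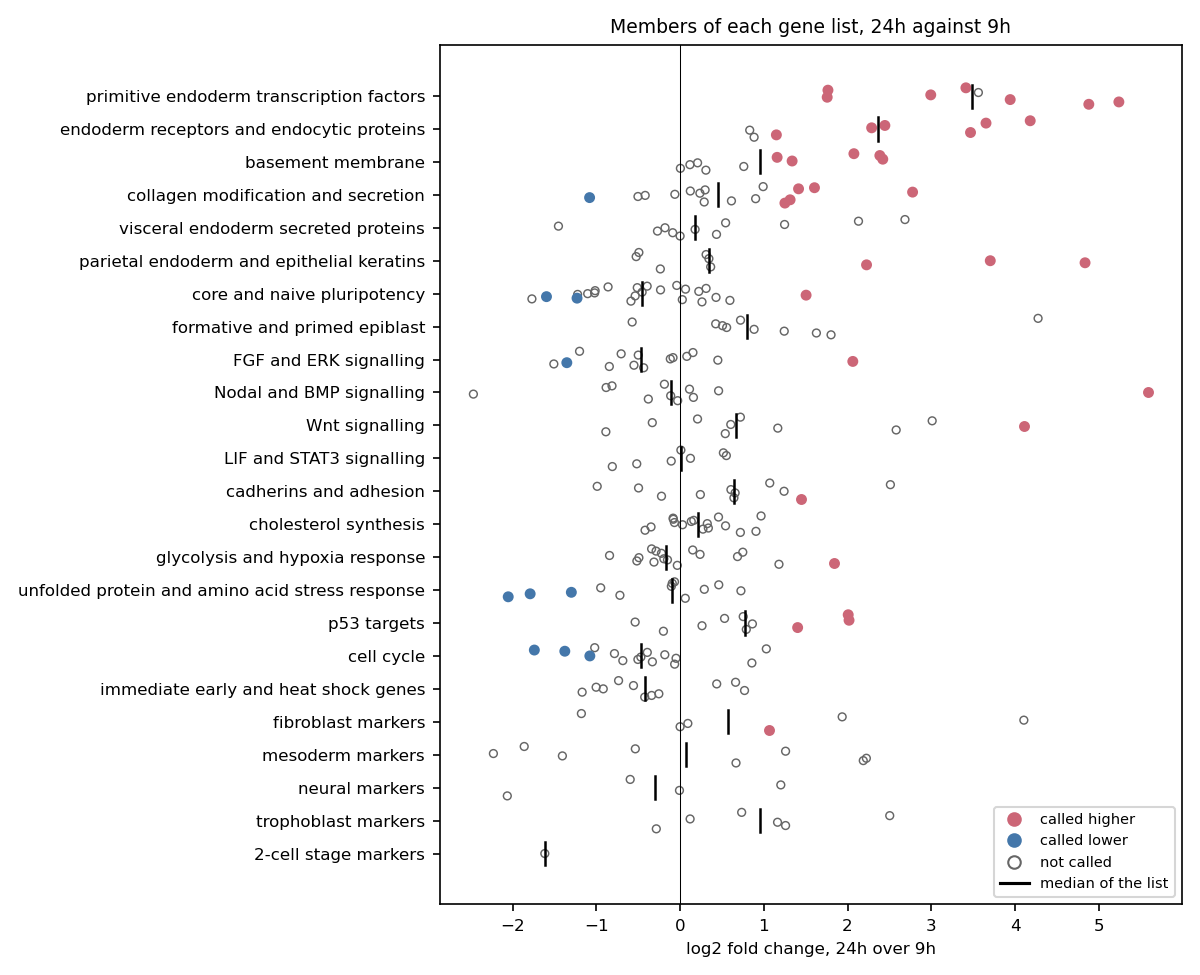
Log2 fold change (24h over 9h) of each tested member of the 24 gene lists, filled red where called higher, filled blue where called lower and open where not called, with a bar at the list's median. In the endoderm lists at the top, 7 of 8 transcription factors and 6 of 8 receptor genes are red.

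Lists of stress, cell cycle and p53 target genes held 3 calls each. Among all genes with a mean of at least 20 CPM, 6.04% were called lower and 1.67% higher. In the unfolded protein and amino acid stress list 3 of 12 were called lower (3.46% of all genes), with a list median of -0.10: Atf4, a factor of the amino acid response, Trib3 and Chac1. Atf4 fell from 353 and 363 CPM to 143 and 148 CPM (-1.30 ± 0.22, adjusted p = 0.00866), Trib3, a pseudokinase gene, from 37.8 and 35.3 CPM to 11.1 and 10.0 CPM (-1.79 ± 0.27, adjusted p = 0.00655) and Chac1, a glutathione-degrading enzyme gene, from 35 and 34.2 CPM to 11.3 and 5.32 CPM (-2.05 ± 0.50, adjusted p = 0.0259). Atf4 was not called without 24h rep1. Ddit3, which encodes the stress factor CHOP, had 14.7 and 15.1 CPM and then 18.6 and 30.7 CPM, and Sesn2 25.3 and 25.7 CPM and then 32.8 and 20.5 CPM, neither of them called. Levels in ES were between those of both times for Atf4 (203 and 206 CPM) and Trib3 (16.8 and 20.2 CPM). Genes of the endoplasmic reticulum chaperones Hspa5 and Hsp90b1 had log2 fold changes of -0.07 and -0.09 and were not called. Of 15 cell cycle genes, 3 were called lower, again against 3.46%: Ccnd3, cyclin D3 (753 and 731 CPM, then 168 and 276 CPM, -1.74 ± 0.29), Ccne1, cyclin E1 (235 and 219 CPM, then 125 and 50.05 CPM, -1.38 ± 0.34), and Cdk1 (169 and 172 CPM, then 74.5 and 87.0 CPM, -1.08 ± 0.21). Cdk1 was not called with the project term or without 24h rep1. In 12 of the 15 both 24h libraries were below both 9h libraries, against 32.7% of all genes. Of 10 p53 targets, 3 were called higher, against 6.4%. Cdkn1a, the CDK inhibitor p21, rose from 7.89 and 7.91 CPM to 27.2 and 36.3 CPM (2.01 ± 0.27, adjusted p = 0.00464), Trp53inp1, which acts in p53-driven arrest and autophagy, from 7.02 and 7.41 CPM to 31.1 and 27.4 CPM (2.02 ± 0.22), and Eda2r by 1.40 ± 0.25, which was not called without 24h rep1. Cdkn1a was at 55.6 and 36.7 CPM in ES, so the 9h libraries were the lowest of these 3 conditions.

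The rule for the genes with the largest changes at 20 CPM or more named 12 in each direction. Besides Foxq1, Gata4, Plod2, Lamb1 and Col4a2, those higher were Zfhx3, Neat1, S100a13, Pdcd4, Car4, Platr13 and Ahnak2. Zfhx3, a large zinc-finger and homeobox factor, rose from 4.09 and 4.79 CPM to 57.0 and 37.5 CPM (3.41 ± 0.26, adjusted p = 0.000635). Neat1, the long noncoding RNA of paraspeckles, rose from 13.4 and 12.9 CPM to 97.6 and 100 CPM (2.91 ± 0.21, adjusted p = 0.00057). Pdcd4, an inhibitor of translation initiation, rose from 14.1 and 14.5 CPM to 84.4 and 86.8 CPM, and Car4, a membrane-bound carbonic anhydrase, from 9.91 and 10.8 CPM to 76.6 and 46.2 CPM. Platr13, a noncoding RNA of pluripotent cells, was at 72.6 and 64.7 CPM at 9h and 591 and 222 CPM at 24h, below its 381 and 373 CPM in ES at the first time and spread around it at the second. Neat1 and Pdcd4 had nearly equal 24h duplicates, whereas Foxq1 and Platr13 differed by more than 1 (log2) between them. Zfhx3 was at 14.4 and 10.6 CPM in ES and Neat1 at 34.3 and 44.7 CPM, so both were lower at 9h than in ES. Plod2, Pdcd4 and Ahnak2 were lower at 9h than in ES too. Foxq1, Gata4, Lamb1, Col4a2 and Car4 were higher at 9h than in ES, and S100a13 lay between the ES duplicates.

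Among those lower, Tgm1, a transglutaminase (chromosome 14, 55700009 to 55713926), fell furthest, from 44.8 and 45.4 CPM to 5.64 and 4.89 CPM (-3.10 ± 0.19, adjusted p = 0.000276). Pcolce, an enhancer of procollagen processing, fell from 181 and 172 CPM to 20.2 and 24.9 CPM (-2.96 ± 0.22, adjusted p = 0.00057), opposite to Plod2 and the type IV collagen chains. S100a6, a calcium-binding protein, fell from 401 and 403 CPM to 54.6 and 53.04 CPM, and Lgals3, galectin 3, from 95.5 and 85.8 CPM to 17.3 and 12.6 CPM. Of ES cell genes, Eras, an ES-specific Ras, fell from 50.5 and 48.5 CPM to 5.23 and 10.9 CPM (-2.62 ± 0.51, adjusted p = 0.014), and Tdh, the threonine dehydrogenase on which mouse ES cells depend, from 199 and 197 CPM to 27.4 and 47.2 CPM (-2.41 ± 0.44, adjusted p = 0.0114), and neither was called without 24h rep1. Hmces, a sensor of abasic sites, fell from 104 and 106 CPM to 15.5 and 31.7 CPM, and Pim3, a kinase gene, from 153 and 147 CPM to 35.7 and 31.4 CPM. Tppp3, Tnni3, Slc7a7 and Nkx6-2 fell by 2.37, 2.22, 2.21 and 2.13 on the log2 scale. Tnni3 was at 2.41 and 2.61 CPM in ES and 47.3 and 45.5 CPM at 9h. Tgm1, Pcolce, Pim3, Tppp3, Eras and Lgals3 were also higher at 9h than in ES. Tdh, Hmces and Nkx6-2 were lower at 9h than in ES, and S100a6 and Slc7a7 lay between the ES duplicates. Tgm1, Pcolce, Pim3 and Tppp3 were called in all 15 alternatives, the loss of either 9h library included, as were Zfhx3, Neat1 and Plod2 among those higher, while Tnni3 and Platr13 were not called without 24h rep1.

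The libraries of 24h differed from each other by gene group. Sums of the primitive endoderm factors were 306.2 CPM in rep1 and 131.3 CPM in rep2 at 24h, and 537.1 and 591.4 CPM at 48h. At 24h all 8 were higher in rep1 than in rep2, as were 50.9% of all genes, though Gata5 was barely counted. The reverse held for 15 of 16 genes of cholesterol synthesis, whose list sums were 489.9 and 480.1 CPM at 9h, 420.0 CPM in 24h rep1 and 761.4 CPM in 24h rep2. Here the 24h libraries stood on opposite sides of 9h: 14 of 16 were above both 9h libraries in 24h rep2, and 11 of 16 were below both in 24h rep1. The shares of all genes so placed in 1 library of 24h were not counted. With both 24h libraries at once, 40.3% of all genes lay above both 9h libraries and 32.7% below. The shares for 1 library are no lower than these. Msmo1, a sterol oxidase, was at 45.6 and 43.5 CPM at 9h, 37.6 CPM in 24h rep1 and 92.2 CPM in 24h rep2. None of the 16 was called by edgeR, with 2 at an unadjusted p under 0.05, or by DESeq2, and 2 (Hmgcs1, Insig1) were called higher with the project term. Glycolysis and hypoxia genes were higher in 24h rep2 in 15 of 16, where 50.9% of all genes were higher in 24h rep1. Bnip3, a hypoxia-induced mitophagy receptor, was the 1 called (15.6 and 16.9 CPM, then 33.5 and 82.8 CPM), though not with the project term. Fosb, an immediate early gene, was at 5.92 and 4.75 CPM at 9h, 16.8 CPM in 24h rep1 and 0.0498 CPM in 24h rep2, and Fos at 34.1 and 28.4 CPM, then 33.9 and 3.66 CPM. At 48h Fos was at 117 CPM in rep1 and 3.79 CPM in rep2, which are of the same 2 projects. None of the 11 immediate early and heat shock genes was called by DESeq2 or by edgeR in the fit of the 10 libraries. In that edgeR fit 4 had an unadjusted p under 0.05 and 2 of these (Junb, Ier2) an adjusted p under 0.05. A fit of the 4 libraries alone called 1 lower. With the project term Fosb and Atf3 were called lower. Project and depth cannot be told apart between the 24h duplicates.

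**Figure D4:**
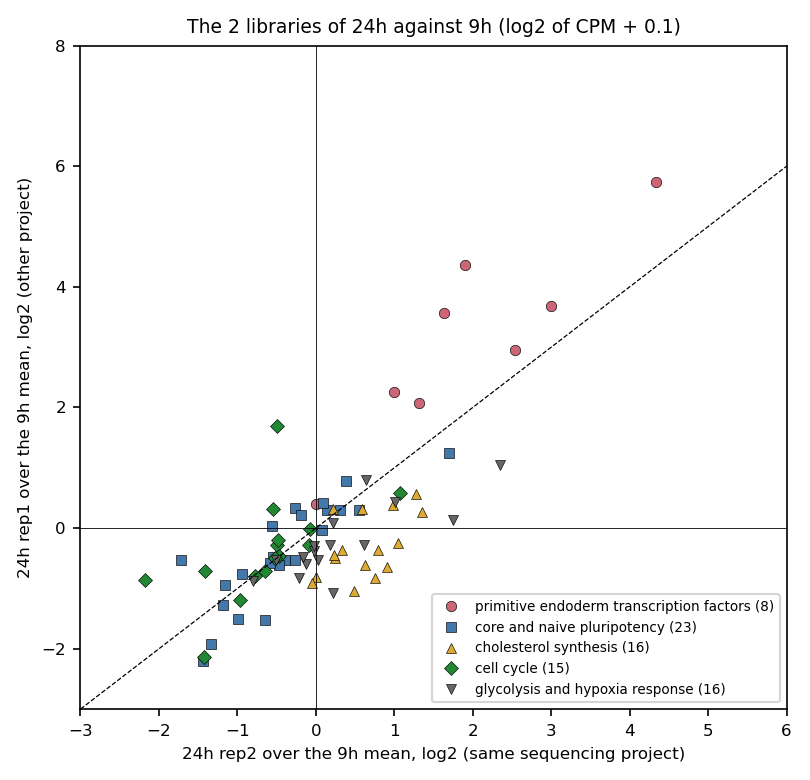
Log2 ratio (CPM + 0.1) of 24h rep2 to the 9h mean (x axis, same project) and of 24h rep1 to the 9h mean (y axis, other project) for 5 gene lists, with the line of equal ratios; both axes share the 9h libraries. Endoderm factors lie above the line in all 8 cases, though Gata5 was barely counted, and cholesterol genes lie below it in 15 of 16.

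Single cells were compared after each cell was thinned to 3000 UMIs, which left out between 103 and 322 cells of each of the 4 libraries as too shallow. A cell with a Foxq1 UMI was found in 0.9097% and 0.485% of cells at 9h and in 29.8% (exact 95% interval 28.6% to 31.1%) and 13.3% (12.1% to 14.5%) at 24h, with 0.06753% and 0.04461% in ES cells, the background (median depth 13140 and 13154 UMIs before thinning). Gata6 was found in 4.309% and 3.537% of cells at 9h and 16.5% and 8.281% at 24h, against 0.08104% and 0.03346% in ES. For Gata4 the shares were 1.389% and 0.869% and then 10.9% and 6.718%, and for Pdgfra 0.5028% and 0.6265% and then 11.3% and 6.718%. These shares were higher at 24h in both libraries, with intervals that did not meet those of 9h. Intervals cover counting error only. The 9h shares are of cells that were sorted and put together again, and not of the culture. With 2 libraries a time the smallest exact permutation p is 0.333, so no test was made. Unthinned, Gata6 was found in 22.9% of cells at 9h and 33.2% at 24h (means of 2 libraries).

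Pluripotency genes were then counted in cells with and without endoderm RNA. Cells with at least 1 UMI of any of 6 endoderm genes (Gata6, Sox17, Foxq1, Foxa2, Pdgfra, Hnf4a) were 6.129% and 5.113% at 9h and 48.6% and 25.7% at 24h, and those with UMIs of 2 or more of the 6 were 0.1676% and 0.06063% and then 13.6% and 3.991%. In ES the shares were 0.1891% and 0.223% for 1 or more. UMIs of 2 or more were found in 0 of 7404 and 0 of 8967 cells (unthinned, in 1 of 7669 and 0 of 9246). The exact counting intervals for the thinned cells reached up to 0.04981% and 0.04113%. In 24h rep1, 79.1% of cells with an endoderm UMI had a Pou5f1 UMI, against 80.8% of the other cells, and in 24h rep2 82.0% against 83.7%, with intervals that overlapped in both libraries. The share of cells with Nanog was lower among cells with an endoderm UMI in both 24h libraries, with counting intervals that did not overlap. It was found in 1.948% of cells with an endoderm UMI and 6.356% of those without in 24h rep1, and in 1.295% and 4.295% in 24h rep2. Tdgf1 was found in 14.8% and 23.0% of them in rep1 and 23.1% and 31.4% in rep2, and Sox2 in 11.05% and 18.05%, and 12.4% and 20.4%. Zfp42 was found in 35.1% and 40.4%, and 35.5% and 42.0%. Utf1 went the other way, at 49.3% with and 44.9% without an endoderm UMI in rep1 and 61.5% and 57.7% in rep2, where the intervals overlapped. Without thinning, some directions turned. Pou5f1 and Zfp42 were then more often found with an endoderm UMI in both 24h libraries (Zfp42 at 76.2% with and 65.98% without in rep1, and 87.3% and 71.95% in rep2), as was Tdgf1 in rep2 (70.8% and 65.95%). Unthinned Nanog stayed lower with an endoderm UMI in both, at 7.898% and 20.6% in rep1 and 8.948% and 19.9% in rep2, while the intervals of Sox2 overlapped in rep2 (51.7% and 52.4%). At 9h the shares of Sox2 were 19.1% and 18.9% in rep1 and 16.6% and 20.4% in rep2, and those of Nanog 4.688% and 6.248%, and 3.953% and 7.476%. Median depths before thinning, for the thinned split, were 11070 UMIs with and 10270 UMIs without an endoderm UMI in 24h rep1. In 24h rep2 they were 18720 and 17320 UMIs. For the unthinned split the depths were further apart, at 11300 and 7832 UMIs in rep1 and 19670 and 12000 UMIs in rep2. The part of depth in the turned directions was not tested. Cells of 1 library are not replicates, and the part of free RNA and doublets in these shares was not tested.

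**Figure D5:**
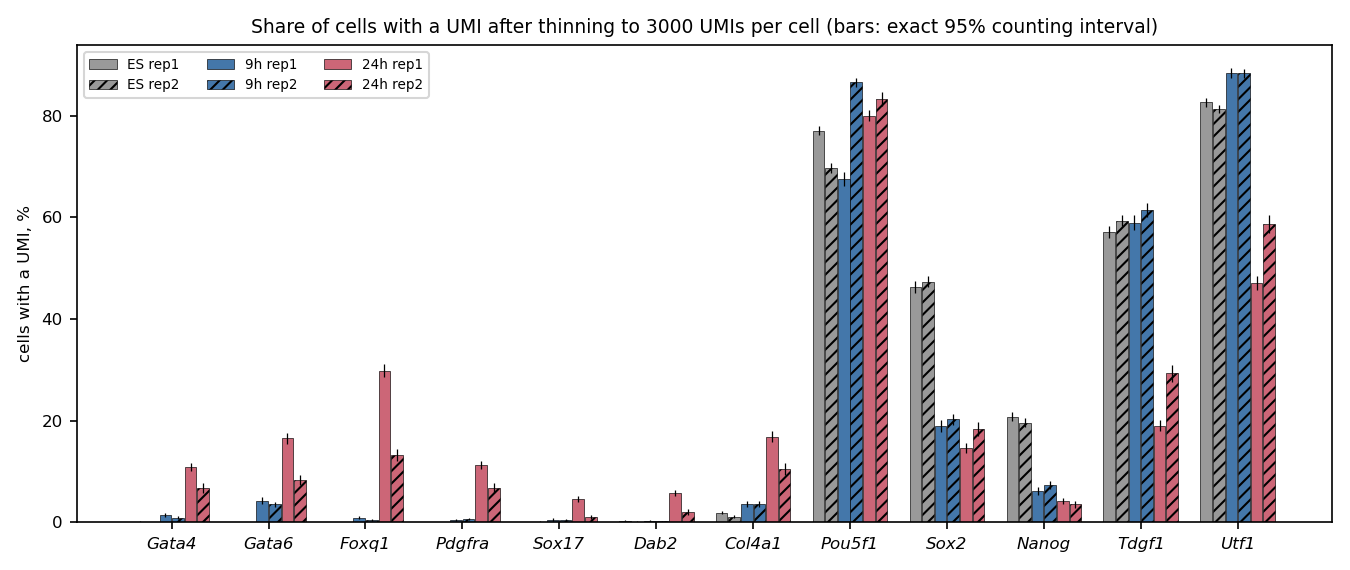
Share of cells (%) with a UMI of 12 genes after thinning to 3000 UMIs per cell, in ES (grey), 9h (blue) and 24h (red), hatched for rep2, with exact 95% counting intervals. Endoderm genes are highest at 24h and are found in at most 1.904% of ES cells (Col4a1 in ES rep1). The Sox17 interval of 24h rep2 meets those of 9h. Pou5f1 is at 67.6% or more in all 6 libraries, and the shares of Tdgf1 and Utf1 are lower in both 24h libraries than in both 9h libraries.

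Genes of other lineages gave 1 call in the fit of the 10 libraries. Of the fibroblast markers tested, Fbln1 rose from 14.5 and 13.5 CPM to 26.1 and 32.3 CPM (1.06 ± 0.18, adjusted p = 0.00978), while the defining markers Lum and Postn were at 0 in all 4 libraries and Col1a1, Col1a2 and Col3a1 at or under 0.710 CPM. No mesoderm (8 tested), neural (4), trophoblast (6) or 2-cell stage (1) marker was called by edgeR in the fit of the 10 libraries. Of these, 2, 1, 2 and 0 had an unadjusted edgeR p under 0.05. An edgeR fit of the 4 libraries alone called 2 mesoderm and 2 trophoblast genes higher. It called 1 mesoderm, 1 neural and 1 fibroblast gene lower. A replicate block called 1 trophoblast gene higher. DESeq2 called 1 mesoderm (Kdr) and 1 trophoblast gene (Gata3) higher. The neural marker Tubb3, a beta tubulin, was at 44.2 and 43.7 CPM and then 9.74 and 11.3 CPM (adjusted p = 0.0686). Over all genes, DESeq2 called 13.2% (7.83% higher, 5.33% lower), and edgeR called 5.46% in a fit of all 20 libraries and 14.8% in a fit of the 4 alone. The share was 9.97% with RLE scaling, 6.82% without a filter on low counts, 10.2% with a replicate block, 9.91% in cells with 1000 or more genes and 9.87% in all deposited cells. It was 9.88% without the doublet calls and 10% without the top 5% of doublet scores. Over all 24 lists, 36 of 252 tested genes were called higher and 10 lower, against 6.4% and 3.46% of all genes.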

How the data were processed

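Libraries of single cells (10x Genomics 3' v2) were processed by the authors with SEQC (version not given in the sources used here) against GRCm38, named mm10 per the labels. The deposited values are raw counts, 1 whole number of UMIs for each cell and gene, after the authors had removed cells with over 20% mitochondrial RNA. Here, UMIs were summed per library over cells with 500 or more genes. 24h was compared with 9h in edgeR 4.0.16 (R 4.3.3; filterByExpr, TMM, robust quasi-likelihood test, Benjamini-Hochberg adjustment) in 1 fit of the 10 ES-to-iXEN libraries, with 5 residual degrees of freedom. Sequencing projects were read from file names. Duplicates differed beyond counting noise. Scrublet (scanpy 1.11.5) called at most 0.571% of cells, and whether it missed doublets was not tested. Removing the top 5% of scores was tried after the data were seen. Alternatives were DESeq2 1.42.0, RLE scaling, no filter, other sets of libraries or cells, blocks and each library left out. The fit was first tested on simulated data with the same spread in every group. It found 86 of 100 genes changed by 1.5 (log2) and 97 of 100 changed by 3, with 12 false calls. The simulation held neither the unequal spread of the 9h and 24h duplicates nor projects, and cannot speak to them. Genes were named from lists, and by the 12 largest folds each way among called genes with at least 20 CPM that moved by 1 (log2) in 24h rep2 against each 9h library; unnamed gene models were not ranked. Members and lists were chosen with earlier results of these data known. Gene places are from GENCODE vM21. Some genes are not reported here and were left out of the lists.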

Additional observations from a re-analysis of the deposited data

How the results depend on the processing

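With 2 libraries a time, the calls depend most on which libraries enter. Leaving out 1 library of the 4 gave 35 to 1001 called genes (22 to 585 higher, 13 to 416 lower) and 3 to 32 list genes higher and 0 to 8 lower, where the lone library left is assumed to vary like the other groups. The lowest counts came without 9h rep1 (40) or 9h rep2 (35). A fit of all 20 libraries called 931 genes, 572 higher and 359 lower, with 4 list genes lower, and a fit of the 4 libraries alone called 842 lower, with 22 list genes lower. RLE scaling gave 913 higher and 654 lower and a median over all genes of 0.0466 in place of 0.104. DESeq2 gave 1159 higher and 790 lower, the project term 765 and 467, and the top 5% of doublet scores left out, chosen after seeing the data, 1023 and 545. Of 65 called list and named genes, 53 were also called with the project term, 40 without 24h rep1, 10 without 9h rep1 and 9 without 9h rep2. Of all 1551 called genes, 1011 were also called with the project term. Fosb turned from 0.66 (not called) to -5.87 with the project term. The cause of these changes was not tested.

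Replicate numbers were not taken to pair the samples. Deviations of same-numbered 9h and 24h libraries correlated at 0.0953 over 4538 genes, and a replicate block gave 1016 genes higher and 582 lower. The 9h duplicates hardly differed and the 24h duplicates are of different projects, so this low value cannot exclude a pairing.

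Shares of cells move with depth. For Gata6, thinning to 6000 UMIs gave 7.54% at 9h and 20.45% at 24h and no thinning 22.92% and 33.19%, against 3.92% and 12.39% at 3000. For Pou5f1 they were 93.49% and 95.65% at 6000 and 98.99% and 94.99% unthinned, against 77.04% and 81.62%, so the order of the times turned without thinning.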

Other observations

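The 9h duplicates were apart at few genes. Of 4538 genes with at least 20 CPM, 8 differed by 0.5 or more on the log2 scale: Pou5f1, Gm10837, Rpa3, Dynlt1b, Tcf15, Gstp1, Pgk1 and Hist1h2ap, chosen after their values were seen. Hist1h2ap, a histone gene with near-identical copies, was at 534 and 339 CPM. Pgk1, a glycolytic enzyme gene with processed copies, was at 26.9 and 17.1 CPM. Tcf15, an early differentiation factor of ES cells, had 150 and 102 CPM in the 9h libraries, then 59.5 and 12.3 CPM, with no call (adjusted p = 0.156). Dynlt1b, a dynein light chain, was called higher in spite of the gap (65.9 and 46.3 CPM, then 177 and 133 CPM).

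Of the 1007 called genes higher at 24h, 56.4% were higher in 24h rep1 than in 24h rep2, against 50.9% of all genes tested. Of the 544 called lower, 64.7% were lower in 24h rep1. As 50.9% of all genes tested were higher in 24h rep1, the share of all genes lower in it was under 50.9%.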
